A study of Homo sapiens with 12 samples.

Results

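The genes described here are the host genes of small nucleolar RNAs (snoRNAs), taken as every row of the raw count table whose symbol is SNHG followed by a number, together with GAS5, ZFAS1, EPB41L4A-AS1 and DANCR. The rule found 32 of 41878 gene rows, and it used names only, not values. Of these, 29 passed the filter on low counts and were tested among 18030 genes. SNHG18 had 0 counts in all 12 libraries, which allows at most 3 counts in each (0.0978 CPM, counts scaled to a common library size, at the highest floor). SNHG27 had 3 counts in vector fed replicate 3 and 4 in TRPML3 fed replicate 3, and SNHG28 had 6 counts in TRPML3 starved replicate 3. These 3 genes had no counts elsewhere and were not tested.

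The libraries came from HEK293T, a human embryonic kidney cell line that takes up plasmids readily. All cells were transfected with Effectene and 1 µg of plasmid, which was a control vector or TRPML3. TRPML3 is a cation channel of endosomes and lysosomes encoded by MCOLN3. The promoter on the plasmid and the share of cells that took it up are not given in the sources used here. Before RNA extraction, cells of either plasmid were kept in medium with 10% serum (fed) or held without serum for 4 h (starved), a treatment meant to start autophagy. The 4 groups are vector fed, vector starved, TRPML3 fed and TRPML3 starved, with 3 libraries of poly(A) RNA each, labelled as biological triplicates.

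Most snoRNAs of human cells are cut from the introns of other genes, and they guide the chemical modification of ribosomal RNA. Box C/D snoRNAs direct methylation and box H/ACA snoRNAs direct pseudouridylation, while their relatives in Cajal bodies (scaRNAs) act on spliceosomal RNA. In noncoding host genes the spliced exons are left over as a long noncoding RNA. Several of these RNAs, with GAS5 as the textbook case, start with a 5′ terminal oligopyrimidine tract (5′TOP), a C followed by a run of pyrimidines. This start is shared with ribosomal protein mRNAs and places their translation under the control of mTOR, the kinase that senses growth factors and amino acids. As they hold only short open reading frames, their translation triggers nonsense-mediated decay (NMD), and they are known to accumulate when translation stops.

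The RefSeq annotation (GRCh38.p14) places at least 1 snoRNA inside 31 of the 32 host genes, and 151 in all, of which 121 are of the box C/D family, 22 of the box H/ACA family and 4 are scaRNAs. SNHG14, the long transcript of the Prader-Willi and Angelman region that carries the SNORD115 and SNORD116 clusters, holds 84 of them. GAS5 holds 11 and SNHG1 holds 9. For SNHG27 none is listed.

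The first bases of each RNA decide whether it belongs to the 5′TOP class, so the start regions of the members the results turn on are shown. Each window holds 30 bases of the transcribed strand, 10 before the annotated first base of the RNA and 20 from it on, taken from RefSeq (GRCh38.p14). Capitals mark the longest unbroken pyrimidine run. Where that run covers base 11 of the window it lies at the start of the RNA.
SNHG4 (chr5:139274091-139274120, + strand): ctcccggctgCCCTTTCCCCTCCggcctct
SNHG12 (chr1:28581854-28581883, − strand): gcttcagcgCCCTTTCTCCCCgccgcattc
SNHG32 (chr6:31834906-31834935, + strand): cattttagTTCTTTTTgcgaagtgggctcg
SNHG5 (chr6:85678714-85678743, − strand): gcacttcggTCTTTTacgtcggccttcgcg
ZFAS1 (chr20:49278632-49278661, + strand): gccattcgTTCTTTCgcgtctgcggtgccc
SNHG16 (chr17:76557754-76557783, + strand): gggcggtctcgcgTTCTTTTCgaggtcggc
SNHG17 (chr20:38435309-38435338, − strand): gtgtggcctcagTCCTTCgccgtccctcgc
GAS5 (chr1:173869026-173869055, − strand): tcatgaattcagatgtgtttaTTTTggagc
SNHG26 (chr7:22854230-22854259, + strand): taaacttgatctccgcagtgCCCTCCCTTT

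The first 5 of these begin with a C and at least 5 pyrimidines in a row. SNHG18 and SNHG19 do so too, so that 7 of the 28 members with a RefSeq start region (25.0%) carry a 5′TOP start by this definition, against 4.04% of 27305 genes and 65.2% of 66 cytosolic ribosomal protein genes (43 genes). In SNHG16 and SNHG17 the run begins 3 and 2 bases downstream of the annotated first base. Allowing such a shift of up to 5 bases, 13 members (46.4%) against 21.1% of all genes would count. The start that RefSeq gives for GAS5 has no tract, whereas 6 of its 29 transcripts in GENCODE release 29 begin with one. In GENCODE, 15 members have at least 1 such transcript. The class therefore depends on which start is used, and no start sites were measured in these cells. SNHG26 begins with 4 pyrimidines and its longest run lies inside the RNA.

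Library totals ran from 33101540 to 43700547 counts. MCOLN3, the transfected gene, had 9.31 to 18.4 CPM in the vector libraries and 4929 to 58223 CPM in the TRPML3 libraries. TRPML3 fed replicates 1, 2 and 3 had 6211, 4929 and 39972 CPM. TRPML3 starved replicates 1, 2 and 3 had 41362, 58223 and 16896 CPM. The level was thus higher in starved cells in replicates 1 and 2 and lower in replicate 3. Comparisons of fed with starved TRPML3 cells therefore also compare levels of MCOLN3, and its part in them was not tested. For CPM, the library size was scaled by the TMM method. Genes known from HEK293 cells were present, with a mean of 378 CPM for VIM, 192 for LIN28B and 128 for NEFM. Markers of other cell types lay at or near 0, with 0.00816 CPM for PTPRC, 0.0847 for CD3E, 0.110 for CD14, 0.171 for PECAM1 and 0.697 for ALB, apart from COL1A1 at 10.1 CPM. Mitochondrial transcripts took 1.05% to 5.70% of the counts. In each of the 4 groups that share was highest in replicate 3 and lowest in replicate 2.

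The host genes were unevenly expressed. Together they took 0.298 ± 0.0293% of all counts with vector when fed (SD, n = 3) and 0.308 ± 0.0509% when starved. With TRPML3 the shares were 0.256 ± 0.00896% when fed and 0.302 ± 0.0438% when starved. SNHG29, which hosts SNORD49A, SNORD49B and SNORD65, made up 20.6% of their summed CPM. It was followed by GAS5, SNHG16, SNHG1 and SNHG5, and these 5 genes made up 65.2%. Per kilobase of annotated exon (GENCODE 29, union of all transcripts) the mean level was 160 CPM for SNHG29, 120 for GAS5, 83.9 for SNHG8 and 83.5 for SNHG6. On the same scale SNHG12 had 10.0 CPM and SNHG26 had 3.10. SNHG14, with its exons spread over 43324 bases, had 0.00558 CPM per kilobase. No length was found for SNHG32 and SNHG9. Levels below are CPM without a length correction and are compared only within a gene.

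Serum starvation gave the clearest difference for SNHG26, a little-studied host gene of SNORD93 on chromosome 7 (22854240 to 22861436, GRCh38.p14). In vector cells it had 5.66, 5.73 and 5.97 CPM when fed and 10.1, 9.49 and 10.6 CPM when starved. In TRPML3 cells it had 4.22, 3.72 and 5.90 CPM when fed and 10.2, 10.8 and 15.2 CPM when starved. Every starved library lay above every fed library, with 9.49 CPM the lowest starved and 5.97 CPM the highest fed value. These levels rest on 143 to 524 counts per library. Averaged over both plasmids, the log2 fold change was 1.09 ± 0.19 (SE), with an unadjusted p of 0.000114. The adjusted p over all 18030 genes was 0.279 (edgeR's quasi-likelihood test, Benjamini-Hochberg), so SNHG26 did not pass the threshold of 0.05. No gene tested passed it in this comparison (0% called). The groups of 6 and 6 libraries failed to overlap upwards for 0.754% of all genes tested and for 1 of the 29 host genes.

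The call for SNHG26 depended on the test and on 1 replicate. With DESeq2's Wald test on the same 12 libraries its log2 fold change was 1.09 ± 0.17 at an adjusted p of 6.39e-07, and DESeq2 called 1.81% of the genes to which it gave an adjusted p. Without replicate 3 in all 4 groups, edgeR gave 1.11 ± 0.15 and an adjusted p of 0.0292, and there 2.54% of all genes were called higher. Over all alternatives the log2 fold change stayed between 0.99 and 1.20 while the adjusted p ran from 6.39e-07 to 1.00. The size of the difference thus held under these alternatives, and the call did not. Genes of small RNAs aside, which were not checked, SNHG26 has no exon in common with another gene in GENCODE 29.

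**Figure D1:**
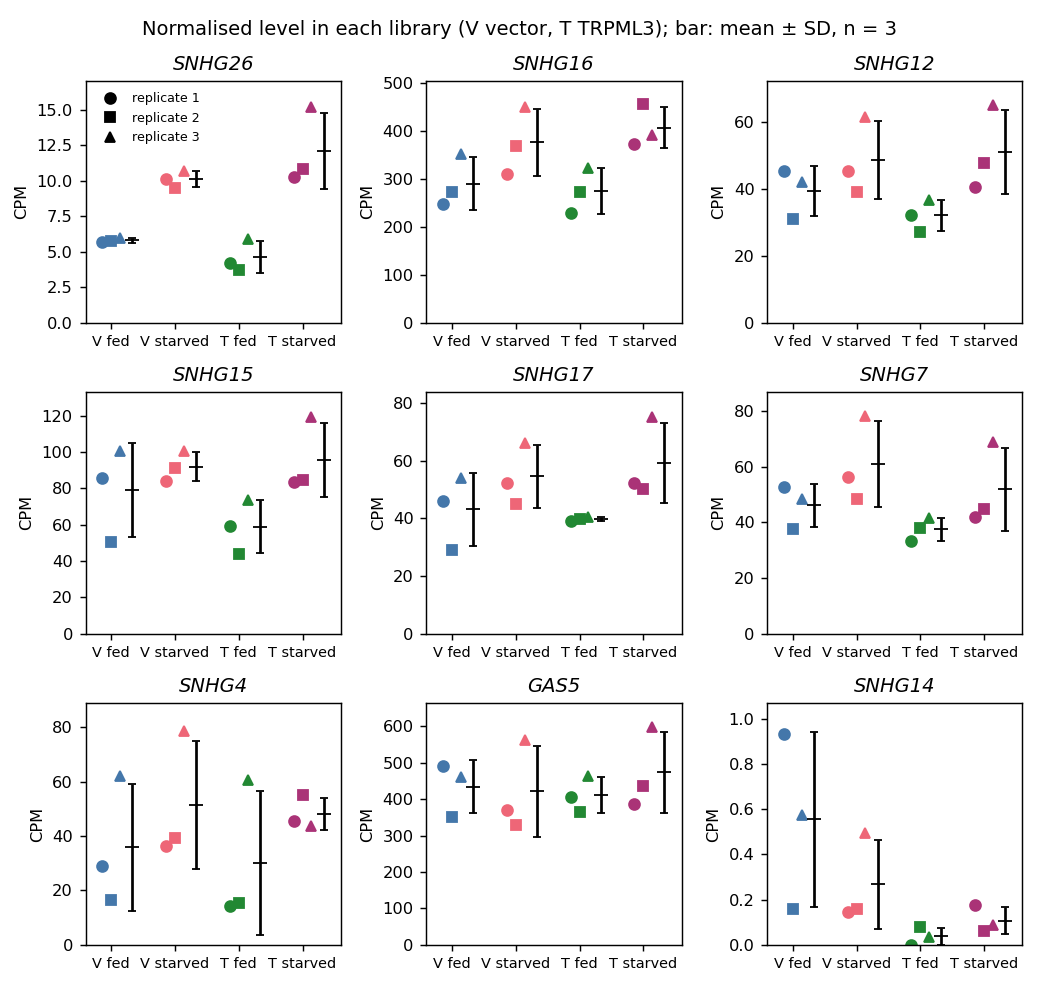
CPM (vertical axis, linear from 0, a separate scale for each gene) of 9 host genes in each of the 12 libraries by group (horizontal axis, V for vector and T for TRPML3), with marker shape for the replicate number and bars for mean ± SD (n = 3). For SNHG26 all 6 starved libraries lie above all 6 fed ones, while for GAS5 the 4 groups overlap.

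The promoter of SNHG26 is printed as the regulatory sequence of the member with the largest starvation difference. It spans 250 bases before to 50 bases after the annotated first base (chr7:22853990-22854289, + strand, GRCh38.p14, RefSeq).
SNHG26 promoter: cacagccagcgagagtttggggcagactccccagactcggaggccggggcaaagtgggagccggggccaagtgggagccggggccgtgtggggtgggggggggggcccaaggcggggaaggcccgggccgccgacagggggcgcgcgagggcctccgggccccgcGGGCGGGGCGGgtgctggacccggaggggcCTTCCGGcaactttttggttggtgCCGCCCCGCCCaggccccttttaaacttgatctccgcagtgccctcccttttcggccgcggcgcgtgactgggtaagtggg
Capitals mark motif matches found on either strand. They are 4 GC boxes (GGGCGG) in 2 pairs, in each of which the boxes overlap by 1 base, and 1 ETS motif (CCGGAAG, here on the other strand). GC boxes were present in 20 of 28 host gene promoters (71.4%) and in 44.6% of all 27305 promoters of this length. The ETS motif was in 2 host gene promoters, SNHG20 and SNHG26, and in 10.7% of all. The E-box CACGTG was in 2, SNHG7 and SNHG30 (7.14%, against 7.44% of all), TATAAA was in 4 (14.3% against 12.0%), and the cAMP response element TGACGTCA was in none (0 of 28, against 1.98%). These are matches of letters, and no binding was measured.

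Beside SNHG26, 5 members reached an unadjusted p under 0.05 for average starvation, all with higher levels in starved cells, which makes 6 of 29 (20.7%) against 4.66% of all genes tested in that direction. None of the 6 passed adjustment over all genes. SNHG16, a widely expressed RNA that hosts SNORD1A, SNORD1B and SNORD1C, had 247, 271 and 352 CPM in vector fed and 310, 368 and 450 CPM in vector starved libraries. In TRPML3 cells its levels were 229, 272 and 323 CPM when fed and 373, 455 and 391 CPM when starved. The vector groups overlapped and the TRPML3 groups did not. Its average log2 fold change was 0.47 ± 0.14 (unadjusted p = 0.00635, adjusted p = 0.363 by edgeR). Without replicate 3 it was 0.57 ± 0.12 at an adjusted p of 0.0552. A GENCODE gene on the opposite strand, AC015802.6, covers 30.6% of its exons, and whether the counting used strand is not given in the sources used here.

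SNHG12, SNHG15, SNHG17 and SNHG7 had similar differences and wider spread. SNHG12, the host of SNORA16A, SNORA44, SNORA61 and SNORD99, had 45.4, 31.0 and 42.0 CPM in vector fed, 45.3, 39.0 and 61.7 CPM in vector starved, 32.3, 27.2 and 36.7 CPM in TRPML3 fed and 40.6, 47.9 and 65.1 CPM in TRPML3 starved libraries. The average log2 fold change was 0.49 ± 0.19 (unadjusted p = 0.0238, adjusted p = 0.451 by edgeR). Its TRPML3 groups did not overlap, and its highest value in either plasmid was starved replicate 3. SNHG15, the host of SNORA9, had 85.8, 50.4 and 101 CPM in vector fed and 84.2, 91.2 and 100 CPM in vector starved libraries. In TRPML3 cells SNHG15 had 59.4, 43.9 and 73.5 CPM when fed and 83.6, 84.5 and 119 CPM when starved. The average log2 fold change of SNHG15 was 0.46 ± 0.20 (unadjusted p = 0.0420, adjusted p = 0.499 by edgeR), and its vector groups overlapped, with fed replicate 3 at 101 CPM.

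SNHG17 carries SNORA71A, SNORA71B, SNORA71C and SNORA71D. It had 46.1, 29.2 and 54.1 CPM in vector fed, 52.4, 45.1 and 66.3 CPM in vector starved, 38.9, 39.9 and 40.4 CPM in TRPML3 fed and 52.4, 50.1 and 75.3 CPM in TRPML3 starved libraries. Its average log2 fold change was 0.46 ± 0.19 (unadjusted p = 0.0336, adjusted p = 0.478 by edgeR). SNHG7 hosts SNORA17A and SNORA17B. It had 52.7, 37.6 and 48.3 CPM in vector fed, 56.3, 48.5 and 78.1 CPM in vector starved, 33.2, 37.9 and 41.4 CPM in TRPML3 fed and 41.9, 45.0 and 69.1 CPM in TRPML3 starved libraries. Its average log2 fold change was 0.43 ± 0.19 (unadjusted p = 0.0391, adjusted p = 0.493 by edgeR). Both genes were highest in starved replicate 3. Without replicate 3 their log2 fold changes were 0.39 ± 0.18 for SNHG17 and 0.26 ± 0.16 for SNHG7. The exons of SNHG7 overlap DIPK1B on the opposite strand over 25.2% of their length, and DIPK1B had an average log2 fold change of 0.17 ± 0.17.

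SNHG4, the host of SNORA74A, is named here after its values were seen. It had 28.9, 16.6 and 61.9 CPM in vector fed, 36.4, 39.2 and 78.4 CPM in vector starved, 14.4, 15.3 and 60.6 CPM in TRPML3 fed and 45.5, 54.9 and 43.8 CPM in TRPML3 starved libraries. Replicate 3 of both fed groups stood far above the other fed libraries. Over all 12 libraries the average starvation log2 fold change was 0.60 ± 0.44 (adjusted p = 0.734 by edgeR). Without replicate 3 in all groups it was 1.26 ± 0.21 at an adjusted p of 0.0373 by edgeR. SNHG4 and SNHG26 were the 2 host genes of 28 (7.14%) called higher there, against 2.54% of all genes. The exons of SNHG4 share 14.01% of their length with a GENCODE gene named MATR3 on the same strand, and that gene (ENSG00000280987) was not analysed here.

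GAS5, named for its accumulation in growth-arrested cells, had 491, 351 and 462 CPM in vector fed and 371, 330 and 563 CPM in vector starved libraries. In TRPML3 cells it had 407, 365 and 463 CPM when fed and 387, 435 and 599 CPM when starved. Fed and starved libraries overlapped under both plasmids, and the average log2 fold change was 0.079 ± 0.17 (adjusted p = 0.937 by edgeR). Its log2 fold change was −0.044 in vector cells, where leaving out starved replicate 3 gave −0.31 ± 0.22, and 0.20 in TRPML3 cells. GAS5, the best known of these RNAs as a growth-arrest transcript, thus showed no difference beyond the spread between replicates after 4 h without serum.

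ZFAS1, which hosts the SNORD12 family and lies antisense to ZNFX1 (11.1% of its exons overlap it), had 166, 139 and 114 CPM in vector fed, 127, 120 and 168 CPM in vector starved, 122, 119 and 114 CPM in TRPML3 fed and 110, 148 and 181 CPM in TRPML3 starved libraries (average log2 fold change 0.15 ± 0.15). EPB41L4A-AS1, the host of SNORA13, had 50.5, 43.2 and 35.2 CPM in vector fed, 51.0, 46.2 and 48.2 CPM in vector starved, 40.6, 36.2 and 33.4 CPM in TRPML3 fed and 41.9, 55.1 and 50.2 CPM in TRPML3 starved libraries (0.30 ± 0.14, unadjusted p = 0.0595). EPB41L4A-AS1 did not overlap between fed and starved TRPML3 libraries. The protein-coding gene EPB41L4A covers 49.6% of its exons on the opposite strand and had an average log2 fold change of −0.33 ± 0.28. DANCR, an RNA known for holding back differentiation and the host of SNORA26, had 51.6, 50.7 and 31.7 CPM in vector fed, 50.2, 46.1 and 38.2 CPM in vector starved, 45.2, 52.6 and 31.2 CPM in TRPML3 fed and 50.1, 60.6 and 37.5 CPM in TRPML3 starved libraries (0.10 ± 0.20). In every group of DANCR the lowest library was replicate 3. None of these 3 genes passed the test (adjusted p of 0.836, 0.557 and 0.926 by edgeR).

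The other abundant members had smaller differences. SNHG29 ranged from 523 to 584 CPM in fed and from 552 to 764 CPM in starved libraries, with an average log2 fold change of 0.22 ± 0.10 (unadjusted p = 0.0610). SNHG1, a classical host gene whose introns and not its exons carry the conserved products, ranged from 263 to 335 CPM fed and from 238 to 410 CPM starved (0.11 ± 0.15). SNHG5 ranged from 175 to 264 CPM fed and from 197 to 287 CPM starved (0.14 ± 0.13). SNHG32 had 0.18 ± 0.14, SNHG3 0.052 ± 0.21 and SNHG6 0.036 ± 0.12 on the same log2 scale. SNHG3 shares 5.92% of its exons with RCC1 on the same strand. The lowest values among members with a mean of at least 1 CPM belonged to SNHG31 (−0.31 ± 0.32) and SNHG30 (−0.30 ± 0.24). None of these 8 genes passed the test. The remaining 10 members tested had average log2 fold changes from −0.17 ± 0.24 for SNHG11 to 0.30 ± 0.25 for SNHG19, with SNHG9 at 0.19 ± 0.23, SNHG10 at 0.15 ± 0.22, SNHG8 at 0.13 ± 0.15 and SNHG21 at −0.026 ± 0.24. SNHG20, SNHG14, SNHG22 and SNHG25 lay between 0.16 and 0.25.

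Averaged over the plasmids, 25 of the 29 members tested had a higher level in starved cells and 4 a lower one, with a median log2 fold change of 0.18. Over all genes tested 50.7% were higher and the median was 0.0062. Much of this difference came with replicate 3. The third library was above the mean of the other 2 for 24 of 29 members in vector starved cells (median log2 difference 0.44) and for 23 in TRPML3 starved cells (0.33), but for 13 in vector fed (−0.13) and 14 in TRPML3 fed cells (−0.069). TRPML3 starved replicate 3 was the highest of all 12 libraries for 12 members, vector fed replicate 1 for 7 and vector starved replicate 3 for 6. Without vector starved replicate 3 alone, 21 of 29 were higher and the median was 0.098. Without replicate 3 in all 4 groups, 14 of 28 members tested were higher and 14 lower, and the median was −0.013. The mitochondrial share was also highest in replicate 3 of every group, fed groups included, and its part in these values was not tested.

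**Figure D2:**
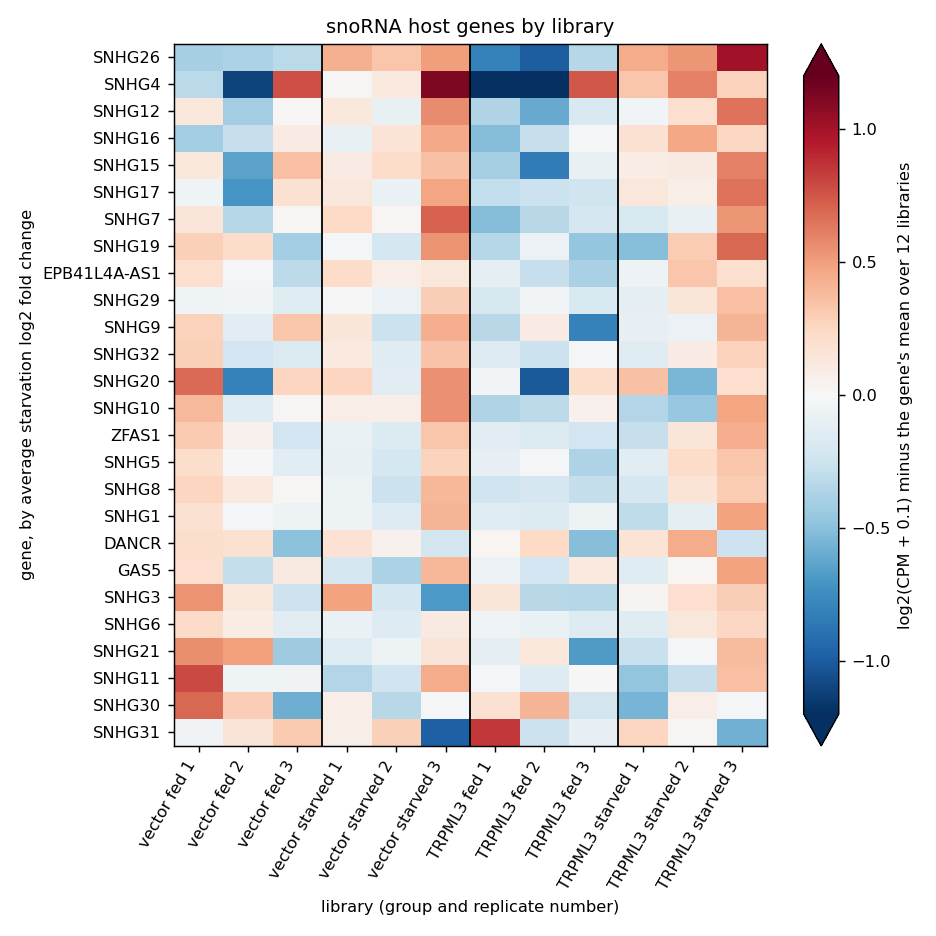
Level of each host gene in each library as log2(CPM + 0.1) minus the mean of that gene over 12 libraries (colour, cut at the ends of the bar), for the 26 tested members with a mean of at least 1 CPM, ordered by average starvation log2 fold change. The columns of starved replicate 3 are red for most genes, and in the top row SNHG26 changes colour with serum in every replicate.

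**Figure D3:**
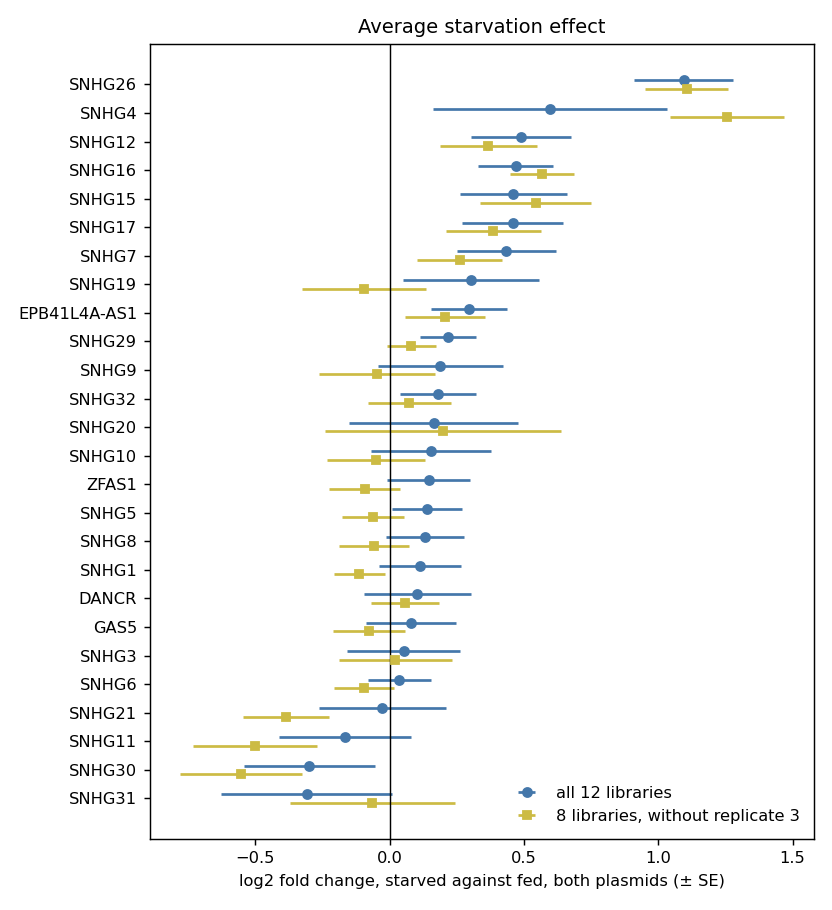
Average starvation log2 fold change ± SE (horizontal axis) of the same 26 members from all 12 libraries (circles) and from the 8 libraries without replicate 3 (squares). The value of SNHG26 is 1.09 and 1.11 in these fits, whereas SNHG4 goes from 0.60 to 1.26 and the squares of several other genes lie below 0.

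The starvation response was then compared between plasmids, since the study asks whether TRPML3 adds to the effect of starvation. In vector cells 15 of 29 members had a higher level after starvation and 14 a lower one, with a median log2 fold change of 0.0065. That median ranged from −0.084 without vector starved replicate 3 (13 of 29 higher) to 0.15 without vector starved replicate 2 (20 higher), and it was 0.13 without vector fed replicate 1 (21 higher). In TRPML3 cells 26 were higher and 3 lower, with a median of 0.34. It was 0.22 without TRPML3 starved replicate 3 (23 of 29 higher). Of all genes tested 49.4% were higher in vector cells (median −0.0053) and 51.2% in TRPML3 cells (median 0.011). Without replicate 3 in all groups, 10 of 28 members were higher in vector cells (median −0.084) and 22 of 28 in TRPML3 cells (0.19). For SNHG26 the log2 fold change was 0.80 ± 0.26 in vector cells (unadjusted p = 0.0108, adjusted p = 1.00 by edgeR) and 1.39 ± 0.26 in TRPML3 cells (unadjusted p = 0.000296, adjusted p = 0.382). DESeq2's Wald test called SNHG26 in TRPML3 cells (adjusted p = 2.73e-05, with 0.49% of all genes called) and not in vector cells (adjusted p = 0.161, with 0.239% called). In TRPML3 cells SNHG12 had 0.67 ± 0.26, SNHG15 had 0.70 ± 0.28 and SNHG16 had 0.57 ± 0.20, and in vector cells the values were 0.30, 0.22 and 0.37.

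Fed and starved TRPML3 libraries failed to overlap for 7 of 29 members, all higher when starved (24.1%, against 5.56% of all genes), namely EPB41L4A-AS1, SNHG7, SNHG12, SNHG15, SNHG16, SNHG17 and SNHG26. In vector cells this held for SNHG26 alone (3.45%, against 5.36%). At an unadjusted p under 0.05 there were 4 members in TRPML3 cells (13.8%, against 2.74% of all genes in that direction) and 1 in vector cells (3.45%, against 2.23%). In TRPML3 cells that count was 1 without TRPML3 fed replicate 1 and 8 without TRPML3 starved replicate 1. In these fits 705 of 18661 and 1078 of 18783 genes reached that p in either direction. None passed adjustment in edgeR in either plasmid, where 0% of all genes were called in TRPML3 cells and 0.00555% in vector cells.

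The difference between the plasmids was tested directly with the interaction term. It was positive for 27 of 29 members, meaning a larger log2 fold change in TRPML3 cells, and for 50.1% of all genes. The median was 0.27 against 0.00031 for all genes. For SNHG26 it was 0.58 ± 0.37 (unadjusted p = 0.140), for SNHG15 0.48 ± 0.40 (unadjusted p = 0.253) and for SNHG16 0.19 ± 0.28 (unadjusted p = 0.501). No member passed by edgeR (0% of all genes called) or by DESeq2 (0.15%), and none had an unadjusted p under 0.05 by edgeR, against 2.07% of all genes. The median of the interaction was 0.19 without TRPML3 starved replicate 3 and 0.48 without vector starved replicate 3. A stronger response in TRPML3 cells was therefore not shown for any single host gene. The level of MCOLN3 also differed between fed and starved TRPML3 libraries, and its part in the interaction was not tested.

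**Figure D4:**
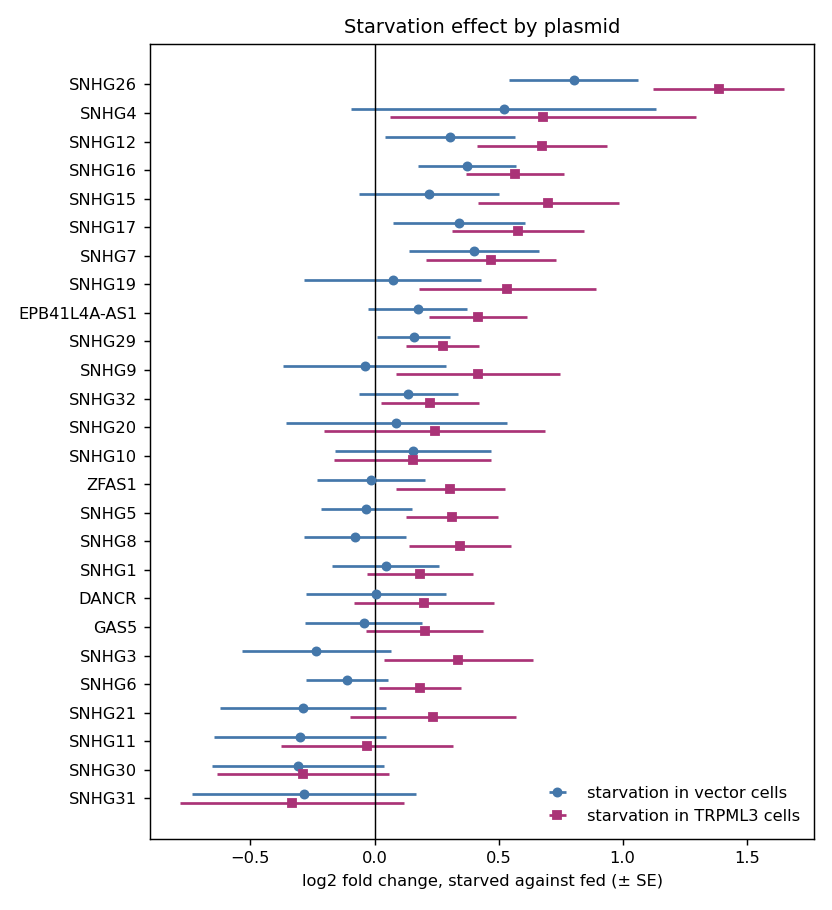
Starvation log2 fold change ± SE (horizontal axis) of 26 host genes in vector cells (circles) and in TRPML3 cells (squares), in the order of the average effect. Most squares lie to the right of their circles, and the error bars overlap for most genes. SNHG26 is at 0.80 and 1.39.

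TRPML3 itself was examined in fed cells, where 28 of 29 members had a lower level with TRPML3 than with vector and 1, SNHG31, a higher one. The median log2 fold change was −0.30, and that of all genes was −0.0094 (48.9% higher). Without vector fed replicate 1, the library with the highest level of 7 members, 24 of 29 were lower and the median was −0.11. These fold changes share the TRPML3 fed libraries with the starvation response in TRPML3 cells, so the lower fed level enters both. The groups failed to overlap downwards for 3 of 29 members (10.3%, against 3.87% of all genes), which were SNHG1, SNHG8 and SNHG14. SNHG1 had 335, 290 and 282 CPM with vector and 266, 263 and 281 CPM with TRPML3, a gap of under 1 CPM between the nearest libraries. SNHG8, the host of SNORA24, named here after its values were seen, had 91.1, 82.8 and 76.9 CPM with vector and 64.9, 66.6 and 62.4 CPM with TRPML3 (log2 fold change −0.37 ± 0.21, unadjusted p = 0.0999).

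SNHG14 was the only member at an unadjusted p under 0.05 for TRPML3 in fed cells (3.45%, against 1.21% of all genes in that direction). With vector it had raw counts of 34, 7 and 20 when fed and 6, 6 and 22 when starved. With TRPML3 it had 0, 3 and 1 when fed and 6, 2 and 3 when starved. The fitted log2 fold change in fed cells was −3.80 ± 1.12 (unadjusted p = 0.00610, adjusted p = 1 by edgeR), and averaged over fed and starved cells it was −2.55 ± 0.75. As the TRPML3 fed libraries hold at most 3 counts, the detection floor, the size of this difference is not well determined. No member passed adjustment for TRPML3 in fed cells by edgeR (0.0111% of all genes called) or by DESeq2 (0.167%).

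In starved cells 18 members were higher and 11 lower with TRPML3, the median log2 fold change was 0.059, and that of all genes was −0.0060 (49.2% higher). Single libraries turned this direction. Without TRPML3 starved replicate 3, 8 members were higher and the median was −0.11, without vector starved replicate 2 it was 11 and −0.015, and without vector starved replicate 3 it was 22 and 0.17. None had an unadjusted p under 0.05 by edgeR (2.2% of all genes), none passed adjustment by edgeR (0.00555% of all genes called) or DESeq2 (0.239%), and no member separated the groups (3.02% of all genes did so upwards and 3.56% downwards). With library size as the only scaling, 9 members were higher and 20 lower, while the median of all genes moved to −0.11. The members' median was then −0.049, so that it lay above that of all genes under either scaling. In fed cells 28 of 29 members were lower with library size alone too. A lower level in these bulk libraries cannot be told apart from fewer cells that express the gene.

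Members with and without a 5′TOP start were compared as a description. The 6 tested members that begin with the tract (SNHG4, SNHG5, SNHG12, SNHG19, SNHG32 and ZFAS1) had a median average starvation log2 fold change of 0.24, with a range from 0.14 to 0.60. The 19 tested members with another RefSeq start had a median of 0.15 and a range from −0.31 to 1.09. SNHG26, SNHG16, SNHG17 and SNHG7, the members at low p other than SNHG12 and SNHG15, are in the second set, and SNHG15 has no start region in the table used. This placement depends on the rule. With a run of at least 4 pyrimidines, SNHG26 and SNHG7 would join the first set. With a run that begins within 5 bases of the start, SNHG7 (0.43), SNHG16 (0.47) and SNHG17 (0.46) would. So would SNHG8 (0.13), DANCR (0.10) and SNHG31 (−0.31). GAS5 and SNHG29 are also in the second set, although 6 GENCODE transcripts of each begin with the tract.

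The genes that share features with the host genes were followed in lists chosen with earlier results of these data known. Of 81 cytosolic ribosomal protein genes, the classical 5′TOP mRNAs, 75 were higher on average in starved cells, with a small median log2 fold change of 0.13. Of these 5 had an unadjusted p under 0.05, all higher (4.66% of all genes were higher at that p), and none passed adjustment. Without replicate 3 the count was 40 of 81 and the median −0.0049, so that this list, like the host genes, moved with that replicate. Among 19 other 5′TOP genes for translation factors and partners 13 were higher (median 0.11), 2 had an unadjusted p under 0.05, and the largest value was that of EIF3F, a subunit of initiation factor 3 (0.43 ± 0.11, adjusted p = 0.349 by edgeR). Of 14 regulators of mTOR signalling and 5′TOP mRNAs 13 were higher (median 0.11), with LARP1, the protein that binds the 5′TOP cap, at 0.80 ± 0.42. Without replicate 3, 9 of 19 genes of the translation factor list were higher (median −0.033) and 9 of 14 regulators (median 0.32). In that fit 2.54% of all genes were called higher and 1.94% lower. There 1 gene of each of these 3 lists was called higher, namely RPLP1, EIF3F and MTOR (the last named after its values were seen).

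For nonsense-mediated decay, 13 of 16 factors were higher in starved cells (median 0.32). Of these 5 had an unadjusted p under 0.05 by edgeR, against 4.66% of all genes in that direction. The largest value was that of UPF3A at 0.96 ± 0.36 (adjusted p = 0.451 by edgeR). Of 14 protein-coding targets of this decay, 4 were higher and 10 lower (median −0.21), from ATF4 at 0.30 ± 0.22 to ATF3 at −0.82 ± 0.41. Most of these targets are also targets of ATF4 or of stress, so the list does not read out this decay alone. Without replicate 3 the median of these targets was −0.15, and that of the factors was 0.48 (13 of 16 higher). None of the genes in either list passed adjustment in the fit to all 12 libraries. In the fit without replicate 3, UPF1 was called higher and ATF3 and GADD45A lower (the first and the last named after their values were seen). There 2.54% of all genes were called higher and 1.94% lower.

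A chosen list of 27 other snoRNA hosts, protein-coding apart from the pseudogene CCT6P1, was tested. Of these, 24 were higher in starved cells (median 0.28). They ranged from PPAN at 1.14 ± 0.63 to TOMM20 at −0.67 ± 0.23. At an unadjusted p under 0.05 by edgeR there were 4 higher genes and 1 lower gene, against 841 and 863 of all 18030 genes. Their median without replicate 3 was 0.33, so unlike that of the noncoding hosts it did not drop. The list leaves out the ribosomal protein genes, many of which also host snoRNAs. The median of those genes did drop, from 0.13 to −0.0049. Of 17 proteins that build snoRNA particles 13 were higher (median 0.21), and the largest value was that of NAF1, an assembly factor of H/ACA particles (0.51 ± 0.26). No gene of these 2 lists passed adjustment in the fit to all 12 libraries. DKC1, the pseudouridine synthase of H/ACA particles and itself encoded by a host gene, was called higher without replicate 3 and is named after its values were seen. In that fit 2.54% of all genes were called higher. For starvation in TRPML3 cells the noncoding hosts had a median of 0.19 without replicate 3, below the coding snoRNA hosts (0.38), the NMD factors (0.34) and the snoRNP proteins (0.28).

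**Figure D5:**
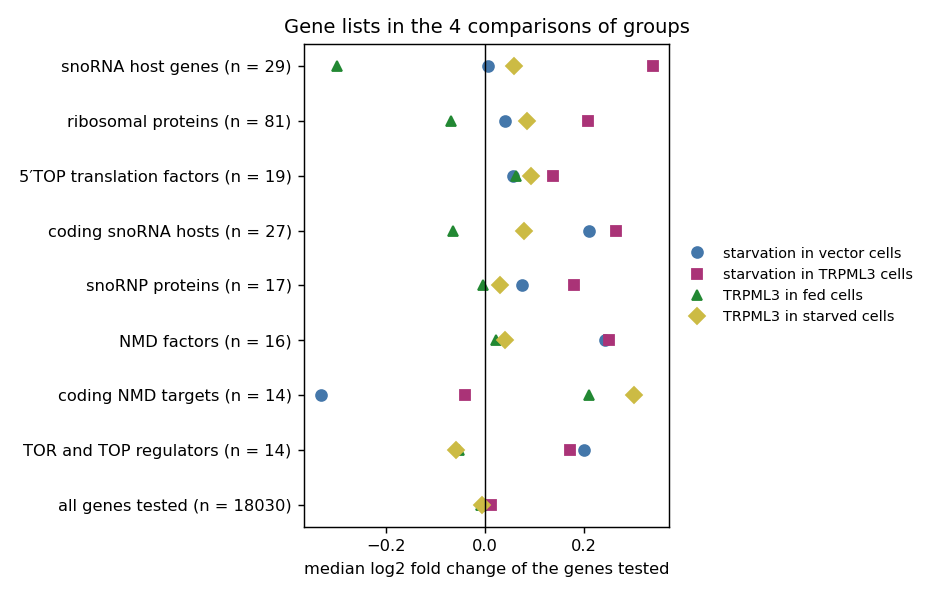
Median log2 fold change (horizontal axis) of each gene list in the 4 comparisons of groups, marked by shape and colour, with the number of genes tested beside each name and all 18030 genes in the last line. The noncoding snoRNA host genes have the lowest median for TRPML3 in fed cells (−0.30) and, with all 12 libraries, the highest for starvation in TRPML3 cells (0.34).

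The snoRNAs themselves were hardly seen. Of the 151 that RefSeq places in these genes, 133 match exactly 1 row of the count table, and 49 of those had at least 1 count. All 133 together had 2889 counts over 12 libraries, of which SNORA73B in SNHG3 had 1304. Libraries of poly(A) RNA are not made to hold such short RNAs without a tail. The levels given for the host genes are therefore those of the spliced noncoding RNA or its precursor, and they say nothing of the amount of snoRNA.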

How the data were processed

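RNA from 12 HEK293T cultures was enriched for poly(A) RNA and made into libraries with the KAPA Hyper Prep kit, per the labels' protocols. The authors deposited raw counts for 41878 gene rows and, for 23252 of them, a normalized signal that equals the count divided by 1 factor per library. The submitters' processing notes name FastQC, fastp, HISAT2, StringTie, DESeq2 and GRCh38. Their versions, the annotation release, the counting and the use of strand are not given in the sources used here, so overlapping genes are uncertain.

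Groups and replicate numbers came from the sample titles. Raw counts were fitted with edgeR 4.0.16 in R 4.3.3 (TMM, filterByExpr on group, robust quasi-likelihood fit of all 12 libraries with 1 coefficient per group, 8 residual degrees of freedom). The filter kept 18030 genes, and p-values were adjusted over them by the Benjamini-Hochberg method at 0.05. The 7 contrasts were starvation under each plasmid, TRPML3 under each serum state, both averages and the interaction. Standard errors are the log2 fold change divided by the root of the quasi-likelihood F. CPM are counts over the TMM-scaled library size. The labels call the replicates biological, and p-values measure the spread between these libraries.

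The members and lists were chosen with earlier results of these data known. Named members are GAS5, ZFAS1, EPB41L4A-AS1 and DANCR, the 8 most abundant others, every member at an unadjusted p under 0.05 in any contrast, and the largest and smallest log2 fold change per contrast among members with a mean of at least 1 CPM. From the other lists, the gene with the largest and that with the smallest log2 fold change in a starvation contrast could be named.

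Same-numbered libraries were checked for pairing by correlating their deviations from group means over 18030 genes. Between plasmids r was 0.11, 0.15 and 0.33 in fed cells, which counts as paired, and 0.13, 0.095 and 0.32 in starved cells. Between serum states it lay between −0.076 and 0.0075. Alternatives were DESeq2 1.42.0 size factors and its Wald test, library size only, MCOLN3 left out, no filter, 10 counts in every library, the replicate block, limma 3.58.1 on log2 of the authors' normalized signal + 1, only the libraries compared, and each library or replicate number left out.

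The fit was tested on simulated data with known changes. The common biological coefficient of variation over these libraries was 0.527. The median SD of log2 CPM within a group was 0.339 for the members and 0.551 for all genes.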

Additional observations from a re-analysis of the deposited data

How the results depend on the processing

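With an unadjusted p under 0.05 in place of an adjusted one, the count of host genes called for starvation was 1 with vector, 4 with TRPML3 and 6 on average. All were higher, and of all genes 2.23%, 2.74% and 4.66% were higher at that p. The average starvation count ranged from 2 to 8 of 29 with 1 library left out. It was 4 of 28 without replicate 3, where 4200 of 18052 genes reached that p in either direction. For TRPML3 the count was 1 in fed cells (1.21% of all genes) and 1 on average (247 of all 18030 genes), both lower. With an adjusted p it was 0 in each. DESeq2's Wald test called 1 member, SNHG26, for starvation in TRPML3 cells (log2 fold change 1.38, with 0.49% of all genes called). It called 1, again SNHG26, for average starvation (1.09, with 1.81% of all genes called). Leaving out replicates gave 0 to 2 called members for average starvation, with 2 without replicate 3, both higher. In that fit 2.54% of all genes were called higher and 1.94% lower. The median interaction ranged from 0.19 to 0.48 when replicates were left out and was 0.48 without vector starved replicate 3. The median average starvation log2 fold change ranged from −0.013 to 0.29 over the same fits. Counting pyrimidine runs that begin within 5 bases of the annotated start gave 13 members in place of 7. The cause of these differences was not tested, except that a looser threshold or start rule admits more genes by construction. With the replicate number as a block, 0 members were called in all 7 contrasts, 26 of 29 were higher for average starvation with a median of 0.17, and the interaction had a median of 0.29, so the block changed no call. As no member was called in the fit to all 12 libraries, no call could reverse in sign. Medians did change sign. That of average starvation went from 0.18 to −0.013 without replicate 3. For TRPML3 in starved cells it went from 0.059 to −0.11 without TRPML3 starved replicate 3. Of the remaining values for single genes, 3402 moved by less than 1 SE and 43 by more. SNHG14, SNHG22 and SNHG25 rest on 54 counts or fewer in any library. Analyses with limma on the authors' normalized signal called 0 members.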
